A study of Mus musculus with 6 samples.

Results

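Cytosolic ribosomal protein genes encode the proteins of the ribosome that translates nuclear-encoded mRNAs. The members were taken by symbol: Rpl or Rps followed by a number and at most a short suffix, together with Rplp0, Rplp1, Rplp2 and Rpsa, and without pseudogene symbols that carry "-ps". This gave 83 of the 31053 genes in the deposited matrices, 51 of the large and 32 of the small subunit. The libraries came from kidney of C57BL/6 mice aged 12 weeks, male by the study's methods, and from mammary tumor of female MMTV-PyMT mice aged 10 weeks, in which the polyoma middle T oncogene is driven by the mouse mammary tumor virus promoter in the mammary epithelium. Minced tissue of each kind was digested with 0.25% type I collagenase, either in a conventional 60 min digestion (the control) or on a microfluidic platform from which cells were eluted after a 15 min and then a 60 min interval. All samples had passed red cell lysis and a sort for live cells, the platform intervals of a tissue came from the same tissue run, and by the study's methods control and platform samples of a replicate were taken from a single mouse. Each condition of a tissue was a single library, 6 in all, so differences between conditions could not be checked against replicates and were not tested. All intervals given are exact 95% binomial (Clopper-Pearson) intervals unless another kind is named. They cover counting error only.

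A ribosome holds a single copy of nearly every one of its proteins, so their mRNAs are made in similar proportions in most cells. Many of these mRNAs start with an uninterrupted stretch of pyrimidines (the 5′ TOP element), through which their translation follows nutrient and growth signals, and their promoters are known for sites of ETS-family factors. In droplet libraries they are among the most abundant mRNAs, above all in lymphocytes, whose cytoplasm is small and otherwise poor in mRNA. A few members are paralogues with restricted expression, such as Rpl3l of striated muscle and Rpl10l and Rpl39l of the male germ line.

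Shown here are the mRNA starts of members on which the results below turn. Many mRNAs of this family are known for a pyrimidine run there, though not all annotated starts have a long run. Each window holds 15 bases before and 15 bases from the RefSeq start on (build GRCm38.p6), 5′ to 3′ on the gene's strand, and capitals mark its longest run of C and T. RefSeq gives a single start for each of these genes except Rps27l, whose other start, at chr9:66946398-66946427, has a longest run of 4.
Rpl35, chr2:39005117-39005146, minus strand: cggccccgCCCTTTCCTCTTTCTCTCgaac
Rps9, chr7:3704026-3704055, plus strand: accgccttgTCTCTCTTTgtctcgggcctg
Rps27, chr3:90213634-90213663, minus strand: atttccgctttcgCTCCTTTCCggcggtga
Rps27l, chr9:66946071-66946100, plus strand: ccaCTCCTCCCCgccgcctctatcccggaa
Rpl12, chr2:32961697-32961726, plus strand: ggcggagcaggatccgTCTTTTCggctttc
Rps18, chr17:33955651-33955680, minus strand: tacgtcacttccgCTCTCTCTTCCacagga
Rps28, chr17:33824548-33824577, minus strand: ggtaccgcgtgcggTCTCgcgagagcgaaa
Rpl41, chr10:128549154-128549183, minus strand: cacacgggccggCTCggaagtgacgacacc
Rps15, chr10:80292416-80292445, plus strand: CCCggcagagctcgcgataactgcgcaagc
The longest run was 18 bases in Rpl35 and 11 in Rps18, and 4 in Rps28, 3 in Rpl41 and 3 in Rps15. RefSeq starts were given for 63 of the 83 members, with 75 distinct windows. A run of at least 8 pyrimidines stood in 28 of these windows, or 37.3%, against 11.9% of 32776 windows of all other genes. On the opposite strand such a run stood in 4.0% of the member windows and in 13.3% of the others. The letters CCGGAAG, the core of an ETS site, occurred on either strand within the 300 bases around the start in 36.0% of the member starts and 8.80% of the others, where the reverse complement CTTCCGG can overlap the end of a pyrimidine run. These are matches of letters around annotated starts, not mapped transcription starts.

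After the limits on genes and mitochondrial UMIs, 5736 to 9936 cells and 33644880 to 61434200 unique molecular identifiers (UMIs, 1 for each captured RNA molecule) remained per library, at medians of 4583 to 9476 UMIs per cell. The deposited counts had already been evened out for read depth between the libraries of a tissue. Cells were classed from 8 markers per type, so each class name stands for cells that are like that type by these markers alone. Its own markers were among the 10 leading genes of every class with at least 50 cells except the kidney dendritic class. Il1b and MHC class II genes led that class. Because cells were picked by these same markers, their lead is no check of the class names. The 10 leading genes of collecting duct principal cells also held 2 distal convoluted tubule markers, S100g and Calb1. Between 2.29 and 11.8% of the cells of a library stayed without a class. Libraries of kidney shared 53 to 211 cell barcodes pairwise and those of the tumor 16 to 21, at most 1.75% of the smaller library.

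Ribosomal protein mRNAs took a smaller part of the kidney libraries than of the tumor libraries. In kidney they made up 13.3% (13.26 to 13.28%) of the UMIs in the control, 7.72% (7.711 to 7.725%) in the 15 min interval and 12.6% (12.64 to 12.65%) in the 60 min interval. In the tumor the shares were 20.1% (20.12 to 20.14%), 19.4% (19.41 to 19.43%) and 18.4% (18.41 to 18.43%) in the same order. The 15 min kidney library thus stood at 0.582 times its control, while the other platform libraries stood at 0.953 (kidney, 60 min), 0.965 (tumor, 15 min) and 0.915 (tumor, 60 min). Single cells ranged widely within each library. In the kidney control the cells' shares had a 10th percentile of 5.16%, a median of 10.7% and a 90th percentile of 25.2%, and in the 15 min interval these values were 4.64, 6.79 and 11.5%.

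The cell mixture moved with the kidney value. Proximal tubule cells, the main transporting epithelium of the kidney, numbered 3081 of 5886 kept cells in the control and 7186 of 8390 in the 15 min interval, and mitochondrially encoded UMIs were 12.1% and 21.6% of the library. With the class shares weighted by the classes of the control (7 classes with at least 30 cells in every library, holding 84.8 to 98.1% of the UMIs), the 15 min library stood at 0.809 times the control and the 60 min library at 0.874. Over UMIs that were not mitochondrially encoded, the shares were 15.1, 9.85 and 14.6% in the kidney control, 15 min and 60 min libraries and 22, 21.1 and 20% in the tumor.

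Cell types differed more in ribosomal protein share than the conditions did within a type. T lymphocytes were high in both tissues, at 32.5, 36.4 and 31.3% in the kidney control, 15 min and 60 min libraries and at 32.4, 30 and 31.5% in the tumor. Natural killer cells of the 60 min tumor library held 31.9% from 32 cells, above its T lymphocytes. In the tumor control and 15 min libraries they held 30.3 and 28.4%, from 19 and 21 cells, below the T lymphocytes. Those of the kidney held 20.3, 21.8 and 17.7%. Kidney B lymphocytes held 28.8, 30.1 and 28.5%. Granulocytes, short-lived cells of the innate defence, were lowest in the tumor at 5.00, 4.8 and 3.83%, and held 4.15% in the kidney control and 6.04% in its 60 min interval, from 36 and 44 cells. The 15 min kidney library had 9 granulocytes and is left out of that comparison.

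Kidney epithelia differed by nephron segment. In the control, proximal tubule cells held 9.58%, intercalated cells 8.64%, the thick ascending limb 7.91%, the distal convoluted tubule 5.84% and principal cells of the collecting duct 5.28%. These values came from 3081, 44, 94, 56 and 92 cells, and the median cells held 9.43, 8.58, 8.23, 7.64 and 4.61%. Mitochondrially encoded UMIs were 14.3, 17.2, 25.1, 24.3 and 26.4% of these classes of the control in the same order. Over the remaining UMIs the member shares were 11.2, 10.4, 10.6, 7.71 and 7.17%. Shares of all UMIs ranked the classes alike in the 60 min interval, but not at 15 min. There intercalated cells held 7.76% (21 cells), proximal tubule cells 6.80% and the distal convoluted tubule 6.76% (18 cells). The thick ascending limb held 5.74% (63 cells) and principal cells 4.87% (10 cells). Tumor epithelial cells held 21.9, 20.7 and 21.0% in the control, 15 min and 60 min libraries, above every kidney epithelial class. Within them, cells with at least 3 markers of proliferation held 22.3, 20.5 and 21.9% and cells with at least 3 basal markers 23.8, 21.5 and 23.2%. The tissues differ in organ, mouse line, tumor state, sex and age, which cannot be told apart here. The background strain of the tumor mice is not given in the sources used here.

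Macrophages and endothelial cells occurred in both tissues. Macrophages held 19.8% in the kidney control and 14.7% in the tumor control. Endothelial cells held 9.47% and 16.1%, so the tissues were in the opposite order. Within some classes the share varied with depth. In proximal tubule cells of the control it hardly did, with medians of 9.45% in the shallowest 25% of the cells by UMIs and 9.28% in the deepest 25%, and in kidney B lymphocytes of the control the values were 28 and 29.8%. In kidney T lymphocytes of the control the median was 25.1% in the shallowest 25% of the cells by UMIs and 38.7% in the deepest 25%, and in tumor epithelial cells of the control 17.0 and 22.7%. Tumor granulocytes of the control had the opposite order, 5.01 and 3.1%.

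**Figure D1:**
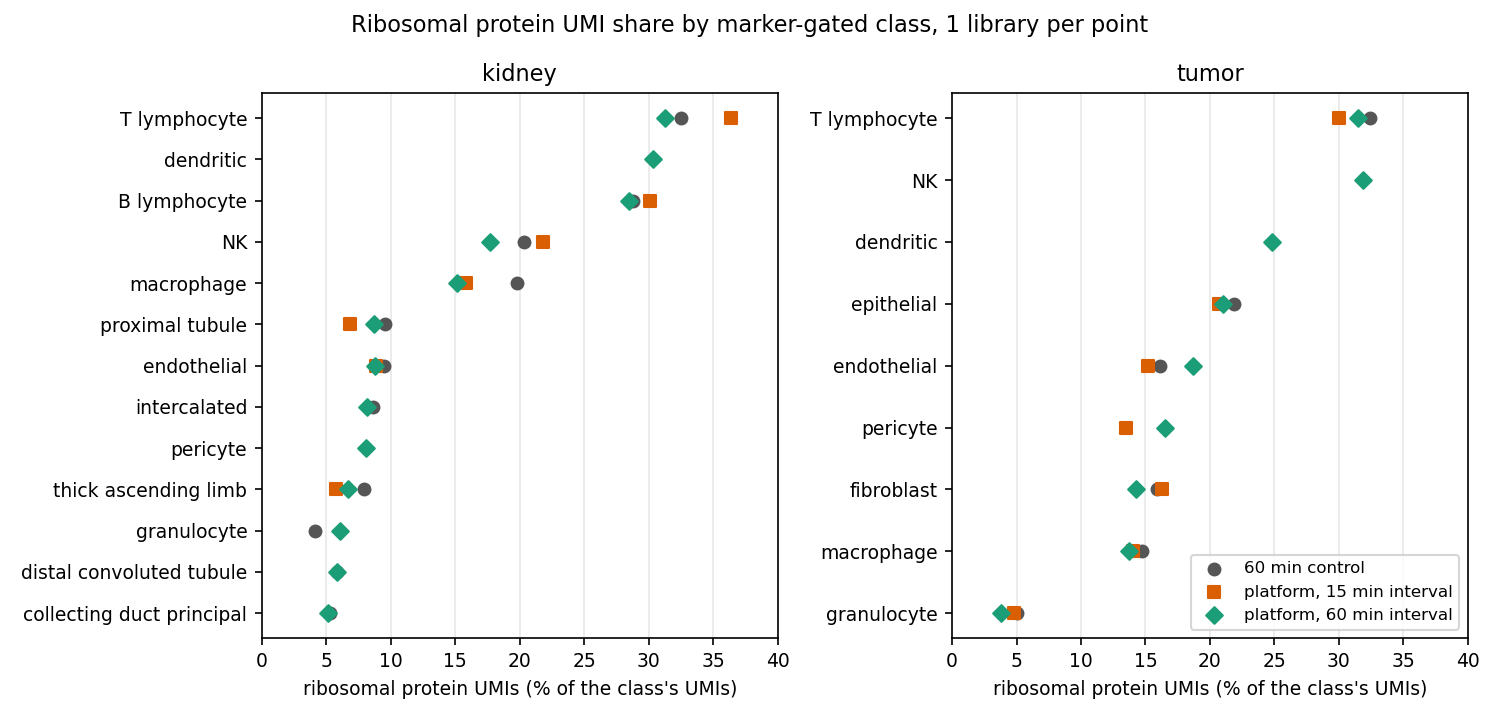
Ribosomal protein UMIs as a percentage of all UMIs of a class (x axis, linear from 0), for each marker-gated class (y axis) of kidney and tumor with at least 30 cells in the library; each point is 1 library. T and B lymphocytes sit at 28.5 to 36.4% and granulocytes at 3.83 to 6.04%, and in kidney the macrophage point of the control (19.8%) and the proximal tubule point of the 15 min interval (6.80%) stand apart from the other libraries of their class.

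Proximal tubule cells carried fewer ribosomal protein UMIs in the 15 min interval than in the control. Their share was 9.58% (9.57 to 9.596%) in the control, 6.80% (6.797 to 6.811%) in the 15 min interval and 8.66% (8.647 to 8.672%) in the 60 min interval, giving ratios of 0.710 and 0.904. The 25th and 75th percentiles of the cells were 6.84 and 12.1% in the control and 5.50 and 8.04% in the 15 min interval. Counted per cell, the class had on average 603, 531 and 561 member UMIs. Mitochondrially encoded UMIs were 14.3, 22.6 and 17.3% of the class, and without them in the total the ratios were 0.786 and 0.936. Across the cells of 1 library, the member share and the mitochondrial share had rank correlations of −0.65 in the control, −0.54 in the 15 min and −0.56 in the 60 min interval over 3081, 7186 and 2943 cells. Both are parts of the same total, and with the mitochondrial UMIs taken out of the member share's total the values were −0.39, −0.15 and −0.28. The part of mitochondrial transcripts in the remaining difference was not tested.

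In the thick ascending limb the share was likewise 7.91, 5.74 and 6.66% in these libraries, from 94, 63 and 292 cells. By summed UMIs, lymphocytes of the 15 min interval were on the other side. The ratio to the control was 1.12 in T lymphocytes, 1.04 in B lymphocytes and 1.07 in natural killer cells, from 110, 222 and 42 cells. The median T lymphocyte held 28.1% in the control and 34.7% at 15 min. The median B lymphocyte held 30.5% in both, and the median natural killer cell 19.6 and 18.9%, so only T lymphocytes were higher by both measures. In the 60 min interval the same classes stood at 0.962, 0.991 and 0.872.

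Kidney macrophages were lower in both platform intervals. Their share was 19.8% (19.78 to 19.84%) in 842 control cells, 15.8% (15.68 to 15.85%) in 129 cells of the 15 min interval and 15.1% (15.06 to 15.11%) in 1475 cells of the 60 min interval. The ratios were 0.796 and 0.762, and 0.835 and 0.775 without mitochondrially encoded UMIs. The median cell held 19.2, 15.3 and 13.7%. Median UMIs per cell were 6930.5, 5334 and 6102 in the control, 15 min and 60 min libraries. The rank correlation of member share with UMIs per cell was 0.23, −0.01 and 0.35. In the shallowest cells, grouped as above, the median share was 16.6, 17.7 and 10.2%, and in the deepest 20.5, 16.8 and 16.2%. The part of depth in the lower share was not tested. The summed level of the 8 proximal tubule markers in this class was 181, 406 and 267 CPM (UMIs scaled to a total of 1000000 per class and library) in the control, 15 min and 60 min libraries, against 11997 to 13985 CPM in proximal tubule cells. Haemoglobin UMIs were 0.000138% of the class in control cells, 0.678% at 15 min and 0.124% at 60 min. Their part in the lower share was not tested.

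Tumor classes differed in how far they moved. The epithelial ratios were 0.944 at 15 min and 0.958 at 60 min, those of macrophages 0.951 and 0.930 and those of T lymphocytes 0.925 and 0.973. Granulocytes stood at 0.960 and 0.765, the latter from 64 cells against 263 in the control. Endothelial cells stood at 0.943 at 15 min and at 1.16 at 60 min, with shares of 16.1% (16.07 to 16.18%) in control cells, 15.2% (15.14 to 15.24%) at 15 min and 18.7% (18.66 to 18.72%) at 60 min. Their median UMIs per cell were 4546, 7574 and 8199.5 in the same order, and mitochondrially encoded UMIs 9.27, 6.75 and 6.44%. Leaving the latter out of the total gave ratios of 0.917 and 1.12. Kidney endothelial cells held 9.47, 8.82 and 8.80%, with ratios of 0.932 and 0.929.

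Single members were then compared between platform and control within a class, as the ratio of CPM among genes with at least 100 UMIs over both sums. A gene was counted as lower past a ratio of 1.5-fold, and also past a smaller limit, at which the lower of both levels was at most 80% of the higher. In proximal tubule cells of the 15 min interval, all 81 members compared were below the control. Of these, 11 were at least 1.5-fold lower, against 4.89% of the 10107 genes compared, and 73 lower past the smaller limit, against 32.6% of the genes. The members' median was −0.49 on the log2 scale and that of all genes −0.21. Over UMIs that were not mitochondrially encoded, these medians were −0.34 and −0.06. In the 60 min interval, 1 member was 1.5-fold lower (0.762% of genes) and 7 were lower past the smaller limit (4.88% of genes), and the median was −0.15 against 0.08 for all genes.

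In kidney macrophages nearly the whole family was lower. At 60 min, 79 of 80 members were below the control, 5 of them at least 1.5-fold (2.55% of genes) and 67 past the smaller limit (16.0% of genes), with a median of −0.42 against −0.00 for all genes. At 15 min, 79 of 80 were below it, 2 by 1.5-fold (10.7% of genes) and 37 past the smaller limit (20.5% of genes), with medians of −0.32 and 0.08. Kidney endothelial cells had no member past 1.5-fold at either interval (5.74% of genes at 15 min and 2.86% at 60 min). They had 4 members lower past the smaller limit at 15 min (12.7% of genes) and 4 at 60 min (10.5% of genes).

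In tumor epithelial cells 0 members were 1.5-fold lower at 15 min (3.80% of genes) and 0 at 60 min (2.83% of genes), and 1 and 0 were lower past the smaller limit (7.46 and 10.3% of genes). In tumor macrophages 1 member, Rps27l, was 1.5-fold lower at 15 min (7.69% of genes) and again at 60 min (6.47% of genes), and 2 and 1 were lower past the smaller limit (12.6 and 16.6% of genes). Tumor endothelial cells had 0 members 1.5-fold lower at 15 min (3.84% of genes) and 0 at 60 min (7.49% of genes), with 2 and 0 past the smaller limit (10.4 and 23.5% of genes). At 60 min, 76 of the 80 endothelial members were above the control, 13 of them past the smaller limit (11.2% of genes were that much higher), with a median of 0.21 against −0.06 for all genes. Both intervals of a tissue were set against the same control library.

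**Figure D2:**
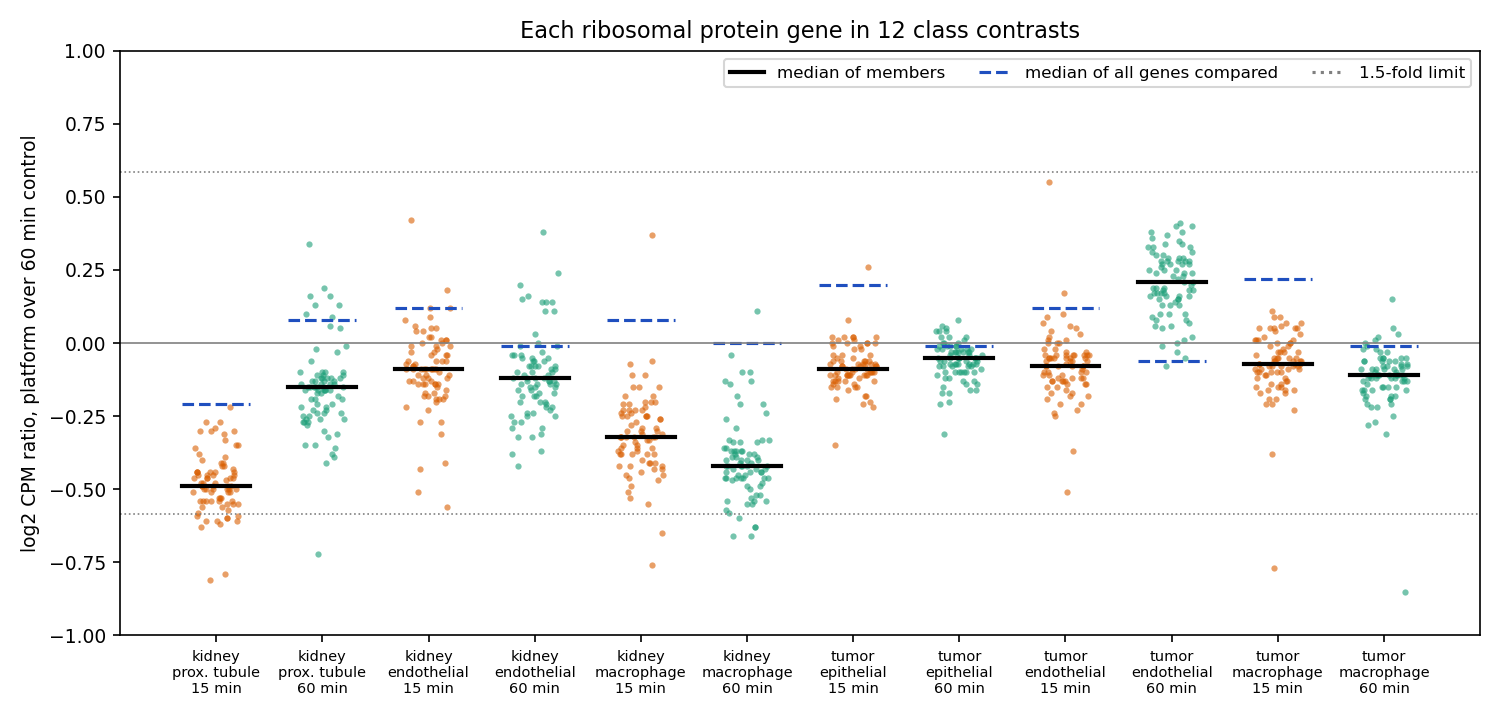
Log2 CPM ratio of platform over control (y axis) for each ribosomal protein gene with at least 100 UMIs in 12 class contrasts (x axis; orange, 15 min interval; green, 60 min interval), with the median of the members (black), the median of all genes compared (dashed) and the 1.5-fold limit (dotted). The members' median is −0.49 in proximal tubule cells at 15 min and −0.42 in kidney macrophages at 60 min, and 0.21 in tumor endothelial cells at 60 min, and the lowest tumor macrophage point is Rps27l.

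The kidney libraries also differed in which members stood highest and lowest. Rpl35, of the large subunit near the exit of the peptide tunnel, had the highest 60 min ratio of all members in each of 5 classes. Its level was 668, 475 and 844 CPM (control, 15 min, 60 min) in proximal tubule cells, 572, 547 and 743 in endothelial cells and 980, 826 and 1056 in macrophages. The log2 ratio at 60 min was 0.34, 0.38 and 0.11 in these classes, 0.52 in B lymphocytes and 0.47 in T lymphocytes, which is 0.49 to 0.55 above the members' median of the same class. In the 15 min interval Rpl35 lay within 0.07 of that median in all 5 classes. In the tumor it was 1294, 1199 and 1331 CPM in epithelial cells and 844, 838 and 844 in macrophages.

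Rps21, Rps29, Rps27 and Rpl38 were also above the members' median in each of the 5 classes of the 60 min kidney library, at ranks 2 to 9. Other members stood between them in some classes, such as Rpl27 at rank 3 in endothelial cells and Rpl22l1 next to Rpl35 in macrophages. Rps21, of the small subunit, went from 1190 to 1361 CPM between control and 60 min in proximal tubule cells and from 4499 to 5436 in B lymphocytes, and lay 0.29 to 0.35 above the members' median in the 5 classes. Rps29 lay 0.27 to 0.33 above it. Rps15, Rpl17, Rpl12 and Rps6 were below that median in each of the 5 classes. Rps15 ranked 75 to 80 and Rpl17 73 to 80 of 80 or 81 members, while Rps6 ranked 68 in proximal tubule cells and Rpl12 69 in T lymphocytes. Rps6, the S6 kinase substrate of the small subunit, had 873 CPM in the control and 670 at 60 min in endothelial cells and 1469 and 948 in macrophages. Rps15 had 1582 and 1001 CPM in macrophages, a log2 ratio of −0.66, and lay 0.22 to 0.29 below the members' median in the 5 classes. Rpl12, of the stalk base, had 2257 and 1429 CPM in macrophages, also −0.66.

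The 15 min kidney library had another order. Rps28 was the lowest member in proximal tubule cells, at 681 CPM in the control and 388 at 15 min (log2 ratio −0.81), in endothelial cells, at 629 and 425 (−0.56), in macrophages, at 1825 and 1076 (−0.76), and in B lymphocytes, at 2259 and 1709 (−0.40). Rpl41, the smallest ribosomal protein, stood at 3019 and 1750 CPM in proximal tubule cells (−0.79), 1922 and 1445 in endothelial cells (−0.41) and 3909 and 3227 in B lymphocytes (−0.28). Rpl14, of the large subunit, lay 0.19 to 0.32 above the members' median in all 5 classes, with 1543 and 1995 CPM in B lymphocytes. The classes of a library share its preparation and sequencing, so their like order is not independent evidence, and the genes of this comparison were picked from the highest and lowest members after their values were seen. Across the members, the rank correlation of mRNA length with the log2 ratio was 0.18 to 0.36 at 15 min and −0.33 to −0.23 at 60 min over 79 to 81 members in these kidney classes. The members share libraries, and the lengths are those of the principal GENCODE M21 transcripts.

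**Figure D3:**
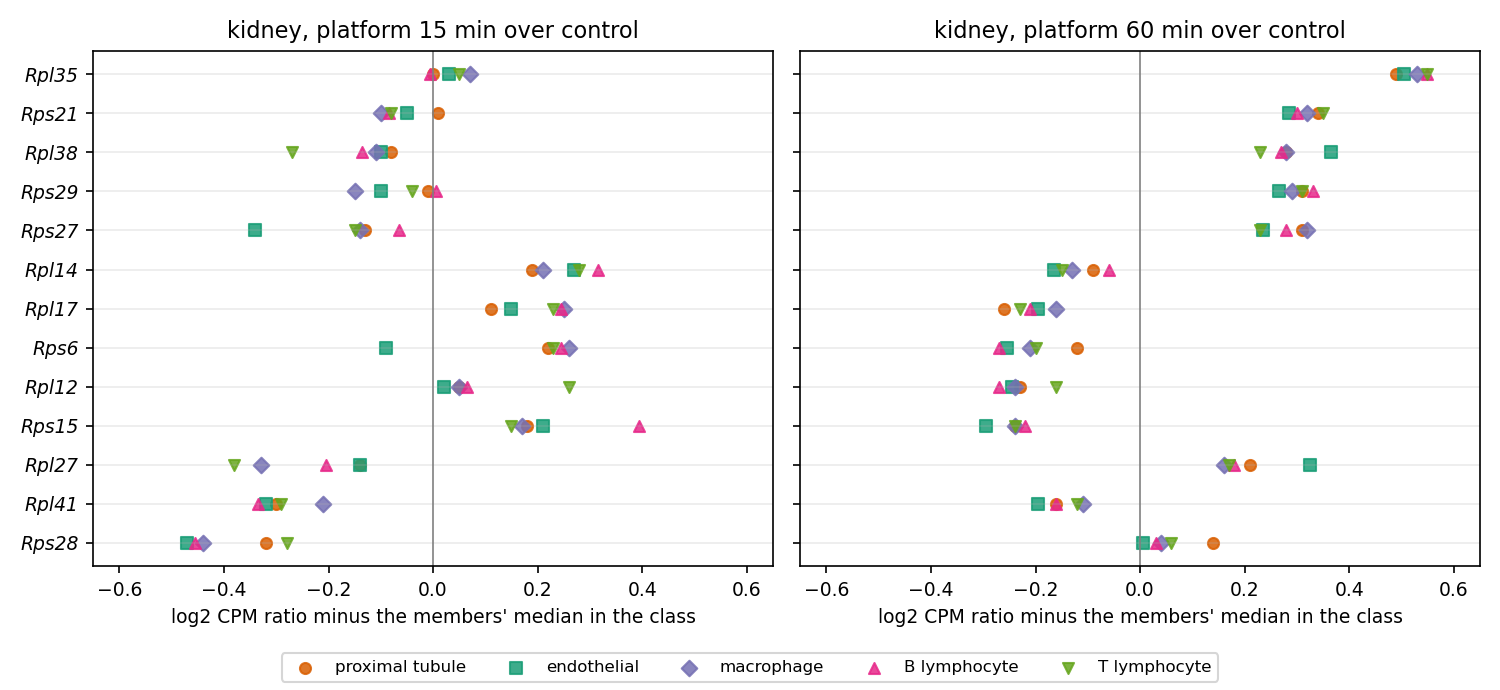
Log2 CPM ratio of platform over control minus the members' median in the same class (x axis), for 13 ribosomal protein genes (y axis) in 5 kidney classes (symbols), at the 15 min (left) and the 60 min interval (right). Rpl35 lies 0.49 to 0.55 above the median at 60 min and within 0.07 of it at 15 min, and Rps28 lies 0.28 to 0.47 below it at 15 min.

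Members near the extremes carry a limit of counting. Stretches of 50 bases from the last 300 bases of the principal transcript were sought in the transcripts of all other genes. For 19 of 83 members some of these 50-base stretches occurred in another gene of the count table, and for 11 members more than 50% did, among them Rpl35 (96.0%), Rps27 (100%), Rps18 (78.5%), Rpl41 (62.9%) and Rpl27 (83.3%). A further set of copies lay in annotated genes outside the count table, where 38 members had more than 50% of their stretches. UMIs of members with copies in the count table can be split or discarded, and the levels of these members are uncertain. How copies outside the count table bear on the counts was not tested. The 9 features with "-ps" symbols held 5348 UMIs in kidney and 13147 in the tumor, together 18495. Rpl41 and its copy Gm10076 illustrate the effect. In proximal tubule cells Gm10076 had 169 CPM in control cells, 188 at 15 min and 488 at 60 min, and the sum with Rpl41 had log2 ratios of −0.72 and −0.12. The sum of Rpl35 and its 3 copies had a log2 ratio of 0.32 at 60 min in the same cells, against 0.34 for Rpl35 alone.

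The remaining parts of the ribosome and the translation machinery were described from lists. Fau and Rack1 encode a ribosomal protein and a ribosome-bound scaffold under other symbols. Fau, whose product is cleaved to the small-subunit protein eS30, had 1894, 1315 and 1729 CPM in the proximal tubule control, 15 min and 60 min cells, and Rack1 had 801, 608 and 656.

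Of 16 translation factors and other TOP mRNAs, 16 were below the control in proximal tubule cells at 15 min, 12 of them past the smaller limit (32.6% of genes), and their median was −0.40. Tpt1, an abundant TOP mRNA, had 8587 CPM in control cells, 5640 at 15 min and 6754 at 60 min there. In kidney macrophages at 60 min, 16 of 16 were below the control, 12 past the smaller limit (16.0% of genes), with a median of −0.37. Tumor endothelial cells at 60 min had 16 of 16 above it, 6 past the smaller limit (11.2% of genes), with a median of 0.31. Eef1a1, which carries aminoacyl-tRNA to the ribosome, had 4730, 4412 and 3621 CPM in kidney macrophages. Of the ribosome assembly factors, 3 of 16 were lower past the smaller limit in proximal tubule cells at 15 min, a smaller share than the 32.6% of all genes, with a median of −0.16 against −0.21 for all genes. In kidney macrophages at 60 min it was 6 of 14, against 16.0% of genes, with a median of −0.17.

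Mitochondrial ribosomal protein genes, whose products build the separate ribosome of mitochondria, are named here for contrast. In proximal tubule cells at 15 min 38 of 77 were lower past the smaller limit, against 32.6% of all genes, with a median of −0.32 against −0.21. The 13 mitochondrially encoded transcripts had a median of 0.67 there. In kidney macrophages at 60 min 28 of 74 mitochondrial ribosomal protein genes were lower past the smaller limit, against 16.0% of all genes. Their median was −0.24 against −0.00. In some other contrasts they did not fall with the members. At 15 min their median was 0.12 in kidney macrophages and 0.32 in kidney endothelial cells, against 0.08 and 0.12 for all genes. The members' medians there were −0.32 and −0.09. Nuclear-retained RNAs such as Malat1 and Neat1 were 0.494, 0.378 and 1.84% of proximal tubule UMIs in the 3 libraries in turn, and 2.77, 3.21 and 3.62% of kidney macrophage UMIs. The part of these transcripts in the member values was not tested.

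Individual members were next set against the family total, so that a value is a percentage of all ribosomal protein UMIs of a class. Over the 6 libraries the 10 most abundant members, among them Rpl23, Rps24, Rplp1 and Rpl41, together made up 21.1% of the family's UMIs. Rpl23 had 0.279, 0.155 and 0.259% of all UMIs in the kidney control, 15 min and 60 min libraries and 0.497, 0.488 and 0.454% in the tumor. Rps24 had 0.324, 0.141 and 0.333% in kidney and 0.469, 0.432 and 0.431% in the tumor. At the other end, Rpl10l had 1 UMI in all 6 libraries and was the only member with fewer than 100. Rpl39l, its fellow germ line paralogue, had 13, 0 and 21 UMIs in the kidney libraries and 37, 19 and 63 in the tumor. The 0 stands among 61434200 UMIs and allows up to 3 counts.

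The members differed in how far their share ranged across cell types. Of 79 members with enough expected UMIs in every class, 35 ranged over more than 2-fold between the kidney classes and 15 between the tumor classes, and the median range was 1.91-fold and 1.51-fold. At the narrow end, Rpl19 ranged 1.22-fold between kidney classes (1.79% in natural killer cells, 1.46% in granulocytes), Rpl23 1.29-fold and Rpl35a 1.30-fold. In the tumor Rps15 ranged 1.10-fold (0.861% in pericytes, 0.783% in macrophages), Rpl34 1.20-fold and Rpl22 1.21-fold. These are ranges over classes that pool the 3 libraries of a tissue. Kidney had more classes of at least 50 cells, and its granulocytes held 218226 UMIs against 990980 in the tumor. More classes and fewer UMIs can each widen a range, so the ranges of the tissues are not comparable.

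Rps27l, a paralogue of Rps27 known as a target of p53, ranged most in both tissues. In kidney it made up 0.859, 0.983 and 0.818% of the family's UMIs in proximal tubule cells of the control, 15 min and 60 min libraries and 0.0485, 0.0285 and 0.0394% in T lymphocytes. The pooled values, 0.914 and 0.0396%, differed 23.1-fold. All other kidney epithelia lay between them, at 0.436 to 0.570%, and B lymphocytes were at 0.0456%. In the tumor it was highest in dendritic cells, at 0.694, 0.862 and 0.554% in the 3 libraries, and lowest in T lymphocytes, at 0.104, 0.102 and 0.0904%, a 6.27-fold range of the pooled values. Tumor epithelial cells held 0.461, 0.446 and 0.387%. Its partner Rps27 had the opposite order in kidney, with 0.926, 0.849 and 1.15% in proximal tubule cells and 4.41, 3.44 and 3.70% in granulocytes.

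In tumor macrophages Rps27l had the lowest ratio of all members compared at both intervals. It had 588 CPM in control cells, 345 at 15 min and 327 at 60 min, with log2 ratios of −0.77 and −0.85 and 95% counting half-widths of 0.06 and 0.05. Both platform libraries were below the control. In kidney macrophages it had 247, 214 and 175 CPM. In the thick ascending limb it had 414, 245 and 290 CPM, from 144, 81 and 371 UMIs. In tumor granulocytes it had 277, 251 and 164 CPM, from 170, 61 and 22 UMIs. Not every class fell, and tumor fibroblasts had 427, 427 and 486 CPM of it. In tumor epithelial cells it had 1009, 923 and 811, and at 60 min it was the lowest member there, at −0.31.

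Granulocytes had a ribosomal protein makeup of their own in both tissues. Rps9, of the small subunit, made up 5.88, 7.50 and 3.99% of the family in kidney granulocytes and 5.64, 6.40 and 6.22% in tumor granulocytes, in the order control, 15 min and 60 min. In every other class of at least 50 cells its pooled value lay between 1.12 and 2.01%. The kidney values rest on 187, 72 and 291 UMIs. Rps27 was high in granulocytes too, at 3.33, 3.48 and 4.24% in the tumor, against 1.09% in tumor macrophages. Rpl12 was low, at 0.252, 0.208 and 0.315% of the family in kidney granulocytes from 8, 2 and 23 UMIs, and at 1.58, 1.87 and 1.39% in kidney T lymphocytes. Rpl3, a core protein of the peptidyl transferase region, made up 0.570, 0.403 and 0.214% in tumor granulocytes and 1.27, 1.17 and 1.31% in tumor natural killer cells.

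Rps2, of the small subunit, made up 3.07% of the family in kidney proximal tubule cells and 0.814 to 1.15% in the kidney immune classes. These are pooled values, and the gene was chosen after its values were seen.

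The remaining paralogues were rare. Rpl3l, known from heart and skeletal muscle, had 187, 464 and 112 UMIs in proximal tubule cells, or 9.65, 8.27 and 5.87 CPM, and was the single member past 1.5-fold there at 60 min, with a log2 ratio of −0.72 and a 95% counting half-width of 0.34. In kidney T and B lymphocytes it had 0 UMIs in every library. In tumor epithelial cells it had 2, 0 and 0 UMIs, and in tumor granulocytes 11, 7 and 5. Its partner Rpl3 made up 1.19% of the family in intercalated cells and 0.332% in granulocytes of kidney. Rpl22l1, which can take the place of Rpl22, made up 0.376, 0.363 and 0.381% in tumor fibroblasts and 0.137, 0.146 and 0.0971% in tumor granulocytes, the last 3 values from 42, 17 and 5 UMIs. In tumor epithelial cells it had 554 CPM in the control and 435 at 15 min, the lowest ratio there, at −0.35. Rpl7l1 had the highest 15 min ratio in these cells, at 67.1 and 80.6 CPM (0.26).

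**Figure D4:**
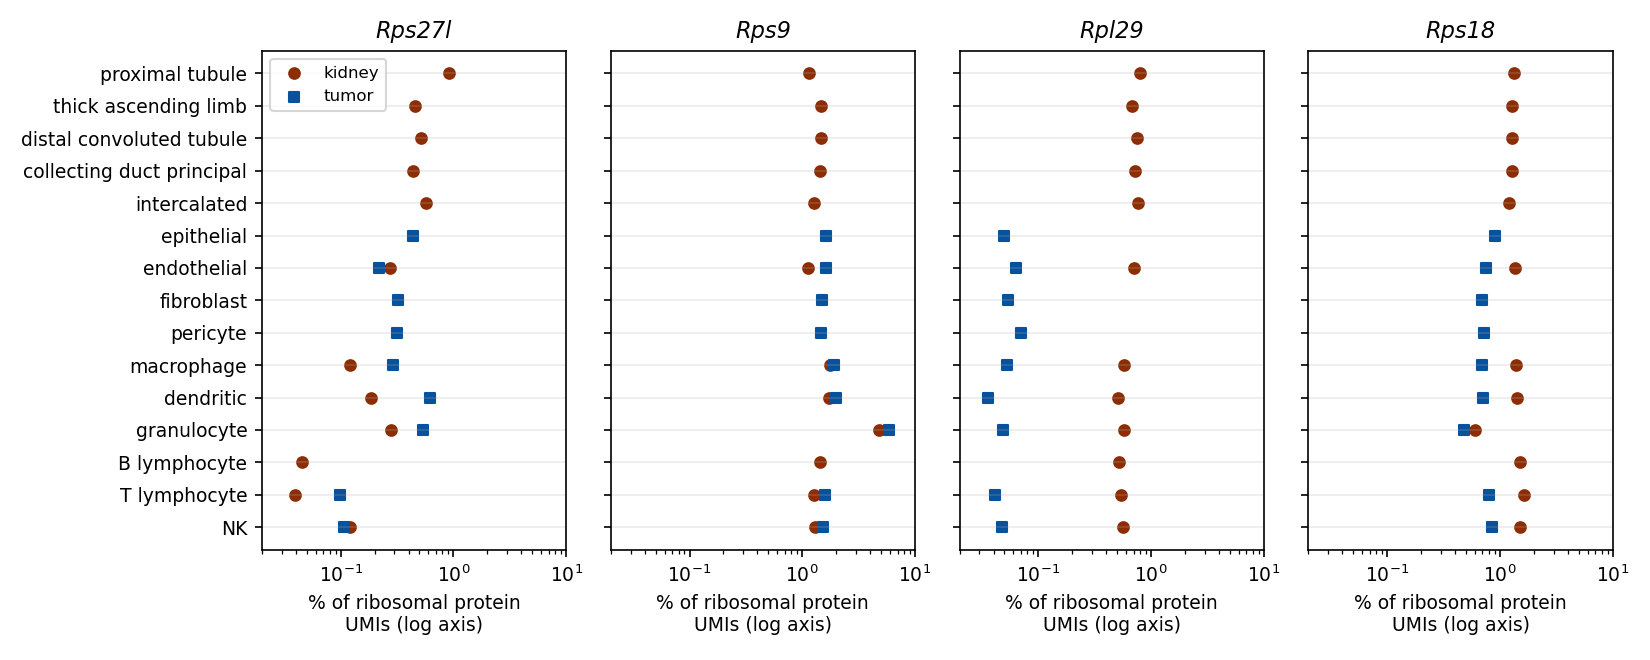
Percentage of a class's ribosomal protein UMIs held by Rps27l, Rps9, Rpl29 and Rps18 (x axes, log scale) in each class (y axis) of kidney (circles) and tumor (squares), pooled over the 3 libraries of a tissue. Rps27l runs from 0.914% in proximal tubule cells to 0.0396% in T lymphocytes of kidney, Rps9 reaches 4.81 and 5.89% in granulocytes, and Rpl29 lies between 0.0360 and 0.0702% in the tumor classes and between 0.505 and 0.804% in the kidney classes.

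Rpl29 separated the tissues. In the control libraries it made up 0.741% of the family in kidney endothelial cells and 0.0679% in those of the tumor, 0.581 and 0.0479% in macrophages and 0.557 and 0.0402% in T lymphocytes. The log2 ratios of tumor over kidney were −3.45, −3.60 and −3.79. The 3 libraries of a tissue lay close to each other, with 0.0878, 0.0629 and 0.0775% of all UMIs in kidney and 0.00994, 0.00901 and 0.0103% in the tumor. Its counted copies Gm17669 and Gm3550, which hold part of its last bases, had 0.0678 and 0.231 CPM in kidney and 0.875 and 3.61 CPM in the tumor, which together are below 5 CPM. Of its 50-base stretches 43.0% occurred in counted genes and 41.8% in annotated genes outside the count table, so its level is uncertain. Reads of both tissues were aligned to mm10, and whether sequence differences between the mice and that reference moved UMIs of Rpl29, Rps18 or their copies was not tested. No other member differed by more than 1 on the log2 scale in all 3 classes, and 3 members did so by at least 0.5 with the same sign.

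Those 3 were Rpl29, Rps18 and Rps27. Rps18, of the small-subunit head, made up 1.45 and 0.823% of the family in kidney and tumor endothelial cells of the controls, 1.47 and 0.710% in macrophages and 1.76 and 0.832% in T lymphocytes. Its copies Gm10260 and Gm11361 held 0.292 and 0.339 CPM in kidney but 533 and 126 CPM in the tumor. In control macrophages Rps18 alone had 2906 CPM in kidney and 1047 in the tumor, and with the copies 2906 and 1441. In control endothelial cells it had 1377 and 1327 CPM alone and 1378 and 1807 with the copies, so the direction turned in CPM. CPM is a share of all UMIs, of which the family held 9.47% in kidney and 16.1% in tumor endothelial cells of the controls. The sum with the copies is not given as a share of the family, so no turn is claimed on that scale. Rps27 made up 1.73 and 1.21% in endothelial cells, 1.53 and 1.05% in macrophages and 2.20 and 1.43% in T lymphocytes. Organ, mouse line, tumor state, sex and age cannot be told apart in these values.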

How the data were processed

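Droplet single-cell libraries (10x v3) of mouse kidney and MMTV-PyMT tumor were used. The authors aligned reads to mm10 with Cell Ranger 3.1.0, joined the libraries of a tissue with depth equalisation and deposited UMI counts, all whole numbers, for every gene in every cell. The gene annotation they used is not given in the sources used here. The deposited counts were read with Python 3.11.15 (numpy 2.4.6, scipy 1.17.1, pandas 2.3.3) and cells with at least 200 genes, at most 3000 (kidney) or 4000 (tumor) genes and at most 50% or 25% mitochondrial UMIs were kept. No doublet caller was run beyond the limit on genes. A cell joined the class with the most of its 8 markers found, if at least 3 were found and at least 2 more than of any other list. UMIs were summed per class and library. Class ratios needed 30 cells in both libraries, classes pooled over a tissue 50 cells, and shares among members 20 expected UMIs. Named genes were the 10 most abundant members, members under 100 UMIs, paralogues, the most and least variable members and the 3 highest and lowest ratios per contrast. Members and lists were chosen with earlier results of these data known. The ratio and class steps were tested on simulated data. Alternatives changed the denominator, cell filter, averaging, mixture, gate, count minimum (10) and fold limit, and the sums of Rps18 and Rpl29 with their copies were added after the data were seen. Some items are not reported here.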

Additional observations from a re-analysis of the deposited data

Results flagged for a closer look

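T lymphocytes, endothelial cells and granulocytes moved in opposite directions in kidney and tumor under the same contrast, with 1 library a group and no test of the difference. The ribosomal protein share of T lymphocytes at 15 min stood at 1.12 times the control in kidney and at 0.925 in the tumor. That of endothelial cells at 60 min stood at 0.929 in kidney and 1.16 in the tumor. That of granulocytes at 60 min stood at 1.46 in kidney, from 44 and 36 cells, and at 0.765 in the tumor, from 64 and 263 cells. The kidney granulocytes of the 60 min library held 1830 CPM of proximal tubule markers against 430 CPM in the control, and their median cell had a share of 3.99% against 4.05%.

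Pseudogene symbols, which the comparisons left out, held 18495 UMIs in both matrices together, of which Rpl27-ps3 had 2929 in kidney and 4532 in the tumor.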

How the results depend on the processing

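With 1 library per condition no difference could be set against the spread between repeated runs, and the values below move by more than counting error, with the cause not tested. No paired analysis was possible because no group has a second library. Ratios are given as 15 min then 60 min over control. Over UMIs that were not mitochondrially encoded they were 0.652 and 0.970 (kidney library), 0.786 and 0.936 (proximal tubule), 0.919 and 0.958 (kidney endothelial), 0.835 and 0.775 (kidney macrophage), 0.958 and 0.907 (tumor library), 0.929 and 0.963 (tumor epithelial), 0.917 and 1.12 (tumor endothelial) and 0.955 at 15 min (tumor macrophage). With every cell of at least 200 genes they were, in the same order of classes, 0.641 and 0.933, 0.720 and 0.901, 0.95 and 0.964, 0.821 and 0.767, 0.962 and 0.902, 0.945 and 0.965, 0.974 and 1.14, and 0.969 and 0.925. As medians over cells they were 0.635 and 0.872 (kidney library), 0.695 and 0.894 (proximal tubule), 0.910 (kidney endothelial, 60 min), 0.715 (kidney macrophage, 60 min), 0.994 and 0.935 (tumor library), 0.957 and 0.965 (tumor epithelial), 0.992 and 1.22 (tumor endothelial) and 0.967 and 0.946 (tumor macrophage). Classes weighted as in the control gave 0.809 and 0.874 for the kidney and 0.945 and 0.959 for the tumor library. A marker counted from 2 UMIs gave 0.718 and 0.911 (proximal tubule), 0.942 (kidney endothelial, 60 min), 0.960 (tumor epithelial, 60 min) and 0.947 and 0.923 (tumor macrophage). The looser gate of 2 markers gave 0.912 (proximal tubule, 60 min), 0.919 (kidney endothelial, 15 min), 0.765 (kidney macrophage, 60 min), 0.945 and 0.949 (tumor epithelial and endothelial, 15 min) and 0.933 (tumor macrophage, 60 min). None of these ratios crossed 1.

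Past the smaller fold limit in either direction there were 73 and 8 members in proximal tubule cells, 5 and 5 in kidney endothelial cells, 38 and 67 in kidney macrophages, 1 in tumor epithelial cells at 15 min, 3 and 13 in tumor endothelial cells and 2 in tumor macrophages at 15 min. Over UMIs that were not mitochondrially encoded, 2 members stayed past 1.5-fold in proximal tubule cells and 1 in kidney macrophages at 15 min. From 10 UMIs on, 3 did in tumor macrophages at 60 min. With its counted copies, the Rps18 CPM ratio of tumor over kidney controls went from 0.964 to 1.31 in endothelial cells and so changed direction. It went from 0.360 to 0.496 in macrophages and from 0.471 to 0.644 in T lymphocytes. These are ratios of CPM, not of shares of the family.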
